A study of Mus musculus with 11 samples.

Results

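The genes of the Wnt signalling pathway were followed in open chromatin of lung epithelial cells from mouse fetuses at E17.5. The members were the peaks whose nearest protein-coding gene body, at most 100 kb away, was a numbered Wnt or Fzd gene, or 1 of 28 named receptors, modulators and effectors of the pathway. This gave 57 genes, among them 19 Wnt ligands and 10 Frizzled receptors, and 4807 of the 981265 deposited peaks. Peaks of all libraries were joined into 400 bp regions around summits, of which 426 of the 83262 tested ones belonged to these genes. All 57 genes had a tested region. A further 84 windows of these genes held a peak in fewer than 3 libraries and were not tested, so that 83.5% of the windows of these genes were tested, against 82.0% of all windows.

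The assay was ATAC-seq, in which a transposase inserts adapters into accessible DNA. Cells were enriched from dissociated lungs by positive selection on EpCAM microbeads, EpCAM being found on the surface of epithelial cells. There were 6 libraries labelled Control and 5 labelled Prdm3/16KO, called knockout here, in which floxed alleles of Prdm3 (Mecom) and Prdm16 were recombined by ShhCre. Fathers were Prdm3fl/fl Prdm16fl/wt ShhCre+ and mothers Prdm3fl/fl Prdm16fl/fl, so all fetuses inherited floxed Prdm3 alleles from each parent. The genotype of the controls beyond the word Control is not given in the sources used here. ShhCre is expressed from the Shh locus in the lung epithelium and other Shh-expressing cells, and the allele disrupts the Shh copy that carries it; whether the controls carried it is not given. No label ties a library to a separate animal or a batch, so the p-values measure the spread between these libraries, which may be technical.

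Wnt ligands are lipid-modified proteins that Wls carries to the cell surface, where Frizzled receptors and the coreceptors Lrp5 and Lrp6 receive them. Without a ligand, a complex of Axin and Apc marks β-catenin for degradation, and with a ligand β-catenin (Ctnnb1) accumulates and works with the TCF/LEF factors on target genes. R-spondins and their Lgr receptors remove the ubiquitin ligases Rnf43 and Znrf3 from the membrane and so keep Frizzled receptors in place, while Dkk and Sfrp proteins block the signal outside the cell. In the developing lung, Wnt2 and Wnt2b are known as mesenchymal ligands required for the lung field, Wnt7b as an epithelial ligand, and Axin2 and Lef1 as targets of the pathway.

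Each region had a rank score in each library: 1 for the strongest peak by the deposited −log10 p, evenly lower scores towards 0 for weaker peaks, and 0 for no peak. Each list was first reduced to its 72935 strongest peaks, the length of the shortest list. A score is therefore a standing within a library, not a read count, and a score of 0 means that no peak was listed among those used. Scores were compared with limma, and a region was called at a Benjamini-Hochberg adjusted p below 0.05 over all 83262 regions. Where every library of 1 genotype scored 0, that genotype had no spread to enter the SE and p. Such a region also passed the minimum of 3 libraries through the other genotype alone. Most named regions were picked for the largest difference of their gene, so their differences and p-values are not typical of all regions.

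The sequences just upstream of 5 gene starts overlap promoter-side regions that were called, that of Ctnnb1 only in its last 70 bases. They are printed 5′ to 3′ on the strand of the gene, from RefSeq (GRCm38.p6), with 250 bases before the start, less any that lie inside the gene body. Capitals mark the core TCF/LEF match CTTTGAT and the GC box GGGCGG on either strand, the latter as the letters bound by Sp-family factors.
Wnt11: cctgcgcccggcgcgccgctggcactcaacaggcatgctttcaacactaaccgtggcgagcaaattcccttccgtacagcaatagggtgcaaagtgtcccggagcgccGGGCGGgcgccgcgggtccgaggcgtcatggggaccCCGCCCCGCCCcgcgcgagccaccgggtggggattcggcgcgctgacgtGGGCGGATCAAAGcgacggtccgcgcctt
Wnt2b: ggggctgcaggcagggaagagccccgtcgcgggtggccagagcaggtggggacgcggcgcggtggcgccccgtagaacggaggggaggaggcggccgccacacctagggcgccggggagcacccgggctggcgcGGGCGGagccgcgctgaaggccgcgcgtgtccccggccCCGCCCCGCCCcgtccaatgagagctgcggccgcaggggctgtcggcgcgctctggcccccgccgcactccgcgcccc
Fzd5: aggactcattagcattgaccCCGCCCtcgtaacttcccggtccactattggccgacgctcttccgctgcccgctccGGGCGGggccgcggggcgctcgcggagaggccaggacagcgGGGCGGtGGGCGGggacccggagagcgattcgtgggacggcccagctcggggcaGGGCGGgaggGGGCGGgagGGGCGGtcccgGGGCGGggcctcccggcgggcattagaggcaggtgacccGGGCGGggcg
Fzd7: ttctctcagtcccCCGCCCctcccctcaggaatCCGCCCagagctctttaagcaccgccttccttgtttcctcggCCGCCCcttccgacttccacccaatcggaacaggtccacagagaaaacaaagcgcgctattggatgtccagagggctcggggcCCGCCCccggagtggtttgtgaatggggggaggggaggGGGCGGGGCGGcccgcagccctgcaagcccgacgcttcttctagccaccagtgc
Ctnnb1: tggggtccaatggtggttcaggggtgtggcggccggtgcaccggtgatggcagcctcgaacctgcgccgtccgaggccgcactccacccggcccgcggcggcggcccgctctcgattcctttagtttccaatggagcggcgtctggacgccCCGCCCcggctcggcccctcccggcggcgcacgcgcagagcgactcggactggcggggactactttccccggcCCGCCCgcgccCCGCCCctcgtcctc
The Wnt11 stretch lies at chr7:98834862-98835083 on the plus strand, Wnt2b at chr3:104961710-104961959 on the minus strand and Fzd5 at chr1:64737751-64738000 on the minus strand. Fzd7 lies at chr1:59481897-59482146 and Ctnnb1 at chr9:120933150-120933399, both on the plus strand, and the called Ctnnb1 region overlaps the last 70 bases of its stretch. That region lies nearest to another Ctnnb1 start, whose window, chr9:120933328-120933577 with 2 GC boxes, is not printed. Wnt11 was the only stretch of these 5 with a TCF/LEF match, which directly follows a GC box. GC boxes numbered 4 in Wnt11, 3 in Wnt2b, 9 in Fzd5, 6 in Fzd7 and 3 in Ctnnb1, and neighbouring boxes may share a base. Across all 21263 such windows of protein-coding genes, 2.82% held CTTTGAT and 42.6% held GGGCGG. Of the 49 windows of 39 Wnt pathway genes with an entry, 2 (4.08%, in Wnt11 and Wnt5b) held the first and 34 (69.4%) the second. The median GC content was 66.8% in those 49 windows and 55.6% in all windows. These matches describe letters and are not sites of binding.

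The region over the Wnt11 stretch, chr7:98834719-98835118, fell in the knockout from 0.312 ± 0.0856 (SD, n = 6) to 0.0811 ± 0.181 (SD, n = 5), with a peak in 6 controls and 1 knockout (limma adjusted p = 0.0385). Wnt11 is a ligand known for planar polarity signalling. That call was lost without any of 8 libraries (controls 1, 2, 5 and 6, knockouts 1, 3, 4 and 5; adjusted p 0.0513 to 0.0856), and with peaks ranked by fold enrichment (0.632). It was also lost at a −log10 q of at least 5 (0.0732) and with scores centred per library (0.0557). The Wnt2b promoter region fell from 0.875 ± 0.0203 to 0.814 ± 0.0412 (adjusted p = 0.0184), and the call was lost with scores centred per library (0.0789). Fzd7 rose from 0.874 ± 0.0266 to 0.925 ± 0.0113 (adjusted p = 0.00655), with no overlap of the genotypes. Fzd5 rose from 0.914 ± 0.0291 to 0.957 ± 0.0211 (adjusted p = 0.0271). It lost the call without any of 5 libraries (controls 3 and 6, knockouts 2, 3 and 5, adjusted p 0.0527 to 0.0658). The call was also lost with the lists as deposited (0.0784), ranked by fold enrichment (0.0952) and with merged peaks (0.194). A replicate block (0.0891) and limma without trend and robust (0.108) lost it as well. Fzd5 and Fzd7 encode receptors of the ligands.

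The 426 regions included 92 lower and 63 higher in the knockout, which is 21.6% and 14.8%. Over all 83262 regions 37.8% were called, 20.8% lower and 17.0% higher, against 36.4% of the Wnt pathway regions. The share called near Wnt pathway genes thus lay close to that of the genome as a whole. The median score difference (knockout minus control) was -0.0376 at these genes and -0.0208 over all regions. The 2 genotypes did not overlap in 83 regions (19.5%, against 22.9% of all regions). The share of calls that were lower was 59.4% at Wnt pathway genes, against 55.1% over all regions. With the lists as deposited it was 73.5% (136 lower, 49 higher), against 67.4%. With scores centred per library it was 48.7% (77 lower, 81 higher), against 45.9%, and with lists of only 36467 peaks 46.4% (39 lower, 45 higher), against 52.1%. Which direction led at Wnt pathway genes thus depended on the scaling.

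Presence of a peak gave a plainer count. A peak in all 6 controls and in no knockout occurred at 11 Wnt pathway regions, against 2.94% of all regions, and a peak in all 5 knockouts and no control at 13, against 3.89% of all regions. Peaks were found only in controls at 55 regions (12.9%, against 11% of all regions) and only in knockouts at 27 (6.34%, against 8.23%). All 11 libraries shared a peak at 160 regions (37.6%, against 43.8% of all regions). Fisher's exact test of presence called 50 of the 132 regions it could call at all (37.9%), against 47.2% of 24732 in the whole table.

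**Figure D1:**
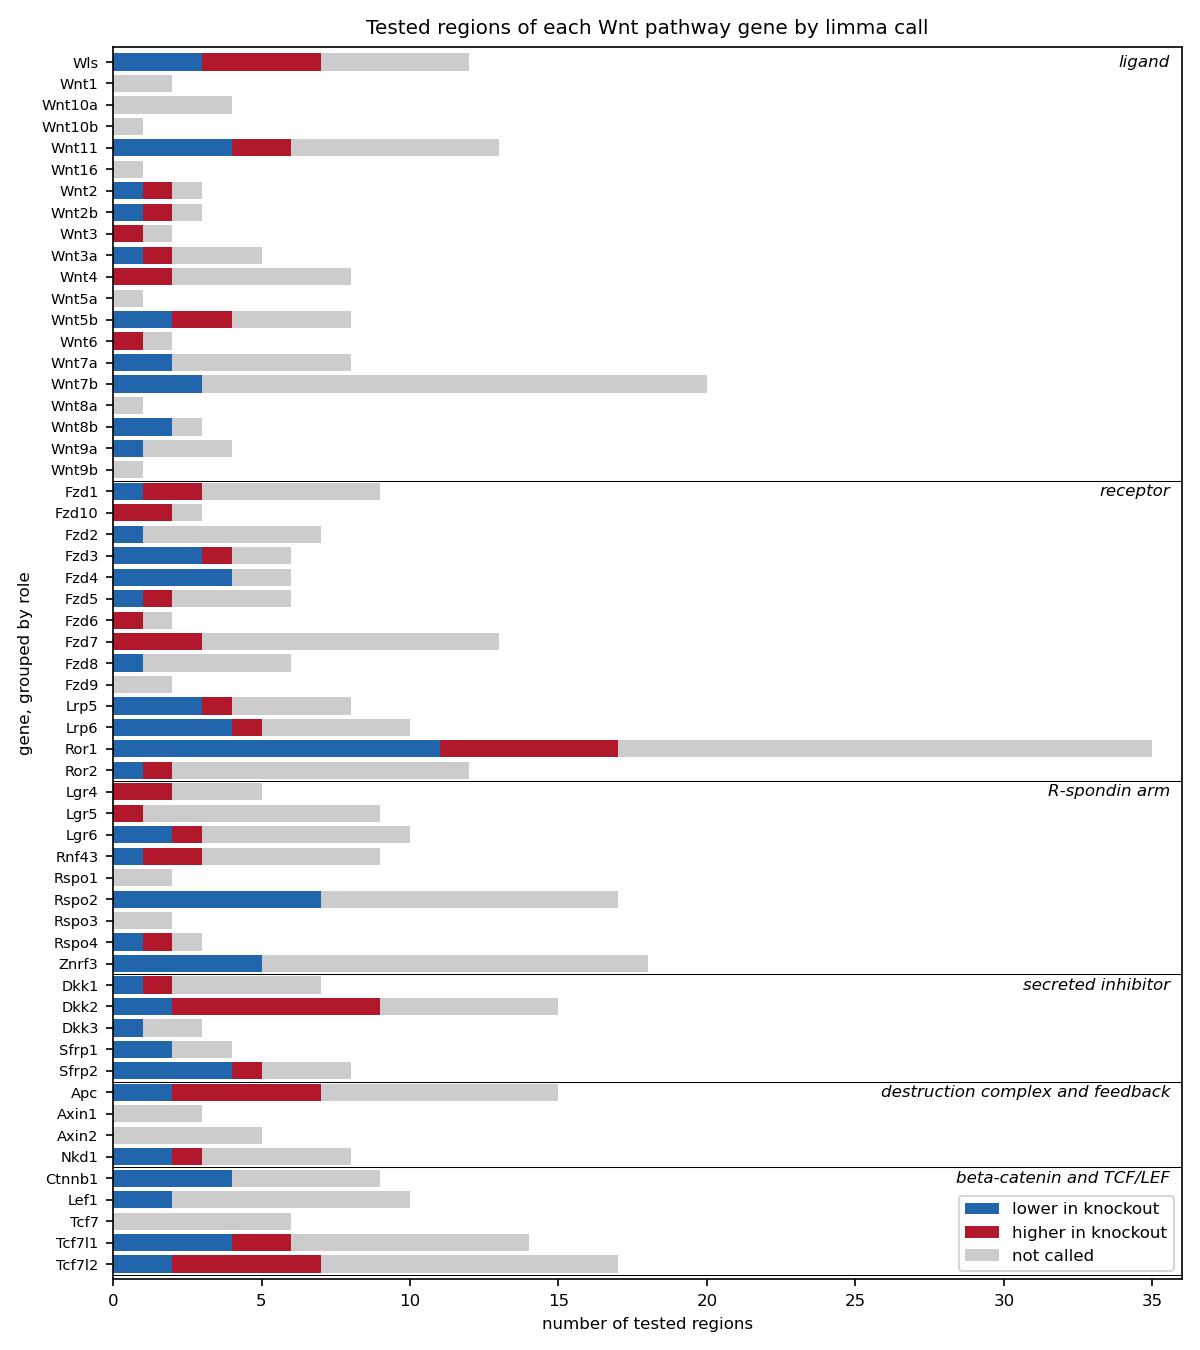
Number of tested regions (x axis) for each of the 57 Wnt pathway genes (y axis, grouped by role), split into regions called lower in the knockout, called higher and not called by limma. Ror1 has the most regions, 35, and Rspo2, Znrf3, Fzd4 and Ctnnb1 have lower calls with no higher ones.

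At the level of genes, 44 of 57 had a called region: 13 had lower regions only, 8 higher regions only and 23 had both. Of all 16252 genes with a tested region, 22.2% had calls in both directions and 41.0% had none, against 40.4% and 22.8% here. Wnt pathway genes also held more regions, with a median of 6 per gene against 3. The 13 genes with no call were Wnt1, Wnt10a, Wnt10b, Wnt16, Wnt5a, Wnt8a, Wnt9b, Fzd9, Rspo1, Rspo3, Axin1, Axin2 and Tcf7. With a library left out, Wnt10a had a higher region without knockouts 2 or 5, Wnt16 a lower one without control 1 or knockout 5, and Fzd9 a higher one without controls 1 or 2.

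By position, 15.3% of the Wnt pathway regions within 1 kb of a gene end were called, 41.9% of those inside genes and 38.9% of those outside genes. Within 1 kb of a gene end, 6 of 72 Wnt pathway regions were lower and 5 higher (8.33% and 6.94%, against 9.56% and 6.59% of all such regions). Inside genes, 55 of 210 were lower and 33 higher (26.2% and 15.7%, against 24.8% and 19.0%). Outside genes, 31 of 144 were lower and 25 higher (21.5% and 17.4%, against 23.0% and 19.5%). The difference between positions was not tested.

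**Figure D2:**
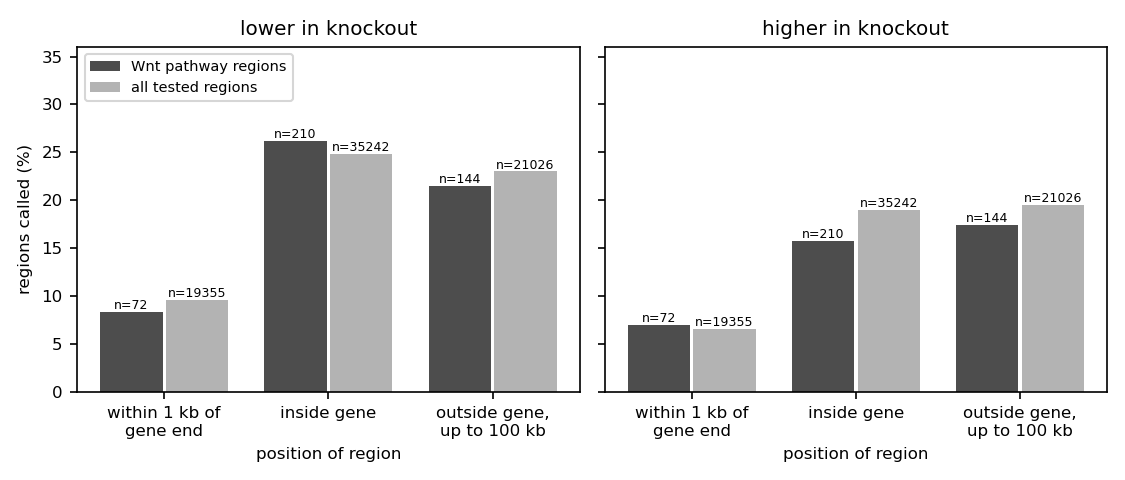
Percent of regions (y axis) called lower (left) or higher (right) in the knockout by position relative to the nearest gene body, for Wnt pathway regions and all tested regions, with the number of regions above each bar. The bars at gene ends are the shortest in both panels, at 8.33% and 6.94% for Wnt pathway regions.

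The 20 ligand genes, counting Wls, held 102 regions, 20 lower and 15 higher (19.6% and 14.7%, against 20.8% and 17.0% of all regions). Wnt8b and Wnt3, ligands of canonical signalling, carried the most marked loss and gain of the group.

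At chr19:44454626-44455025, 38646 bp upstream of the Wnt8b start, control scores ran from 0.435 through a median of 0.543 to 0.636, and all 5 knockouts scored 0. Every control thus had a peak and no knockout did. The difference was -0.540 ± 0.0533 (SE; limma adjusted p = 2.91e-06). The call was lost with lists of 36467 peaks (-0.111, adjusted p = 0.0954).

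Inside Wnt3, at chr11:103801125-103801524 and 27150 bp past its start, all 6 controls scored 0. Knockout replicates 1 to 5 scored 0.656, 0.774, 0.630, 0.707 and 0.610. Here every knockout had a strong peak where the controls had none among the peaks used, a difference of 0.675 ± 0.0492 (SE; limma adjusted p = 1.91e-07). It was the single higher Wnt3 region, joined by a second one without control 6.

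Wls, the carrier of lipid-modified ligands, had 3 lower and 4 higher regions of 12, with 2 higher without knockout 5. At chr3:159782353-159782752, 57097 bp upstream of Wls, control scores ran from 0 through a median of 0.0759 to 0.501. The knockouts scored 0.735, 0.835, 0.760, 0.848 and 0.671, all above the highest control. The difference was 0.605 ± 0.0900 (SE; limma adjusted p = 0.000117). Within Wls, chr3:159848212-159848611 fell from 0.560 to 0.223 (adjusted p = 0.00857), a call that was lost with peaks ranked by fold enrichment (0.287).

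The lung ligands differed among themselves. Wnt7b, the epithelial ligand, had 20 regions, 3 of them lower and none higher. With lists of 36467 peaks, merged peaks, ranking by fold enrichment, centred scores or peaks required in 5 libraries, 1 Wnt7b region was called higher, as it was without control 2 or without knockout 5. The Wnt7b intragenic region chr15:85555829-85556228 had a peak in all 6 controls and no knockout (0.197 ± 0.111 against 0, adjusted p = 0.0123). Wnt7a, its close relative, had 2 lower regions of 8 and none higher. At chr6:91339670-91340069 Wnt7a fell from 0.704 ± 0.0668 to 0.355 ± 0.200 (adjusted p = 0.00277), and at chr6:91372562-91372961 from 0.693 to 0.421 (adjusted p = 0.000422). In both Wnt7a regions the genotypes did not overlap.

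Wnt2 and Wnt2b, the ligands of the early lung field, each had 3 regions with 1 lower and 1 higher. The higher count was 2 for Wnt2 without knockout 3 and 2 for Wnt2b without control 2. The Wnt2 region chr6:18007276-18007675, inside the gene, rose from 0.0293 to 0.395, with a peak in 1 control and 4 knockouts (adjusted p = 0.00628). The lower Wnt2 region, chr6:18031738-18032137, went from 0.214 to 0.0177 (adjusted p = 0.0434) and lost its call without any of 8 libraries (controls 2, 4, 5 and 6, knockouts 1, 2, 3 and 5; 0.0509 to 0.0803). The call was also lost at a −log10 q of at least 5 (0.0637), with centred scores (0.068), with a replicate block (0.113) and by Fisher's exact test (0.124). Wnt2b is known to act redundantly with Wnt2 in lung specification. The higher Wnt2b region, chr3:104962221-104962620, 712 bp upstream of the start, went from 0.578 to 0.692 (adjusted p = 0.0433). It lost the call without any of 8 libraries (controls 1, 3, 4, 5 and 6, knockouts 1, 2 and 3; 0.0510 to 0.114) and turned to -0.0608 when overlapping peaks were merged. The call was also lost with the lists as deposited (0.382) and with a replicate block (0.0567).

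Wnt11 held opposite changes along its locus, with 4 lower and 2 higher of 13 regions. The lower count was 2 without controls 1 or 2 or knockouts 1 or 5. The intragenic region chr7:98837940-98838339 rose from 0.478 ± 0.0470 to 0.756 ± 0.0606 (adjusted p = 4.95e-05) and chr7:98816115-98816514, upstream of the gene, from 0.439 to 0.696 (adjusted p = 0.000169). Of the other ligands, Wnt5b had 2 lower and 2 higher of 8 regions. Wnt5b at chr6:119431878-119432277 fell from 0.500 to 0.0915 (adjusted p = 0.000261), and at chr6:119535334-119535733 rose from 0 in every control to 0.381 (adjusted p = 0.000149). Wnt3a fell at chr11:59261080-59261479 from 0.718 to 0.336 (adjusted p = 2.56e-05) and rose at chr11:59238820-59239219 from 0.784 to 0.876 (adjusted p = 0.000680). Wnt6 rose at chr1:74773081-74773480 from 0.902 to 0.960 (adjusted p = 0.00392). Wnt4 had 2 higher regions of 8, and 1 without any of the 6 controls or without knockouts 1 or 2. Wnt9a had 1 lower region of 4, chr11:59307800-59308199 (0.337 to 0.0993, adjusted p = 0.0243; 0.214 ranked by fold enrichment), and none without controls 1 or 2 or knockouts 1 or 2. Without control 2 or knockout 4 it had 1 higher region.

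The remaining ligands were sparsely covered. Wnt1, Wnt10b, Wnt16, Wnt5a, Wnt8a and Wnt9b had 1 or 2 regions each and Wnt10a 4, with none called. The single region of Wnt5a, a ligand of non-canonical signalling, scored 0.155 in controls and 0.147 in knockouts (adjusted p = 0.965).

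Receptors and coreceptors held the most regions of any group, 125 in 14 genes. Of these regions 30 were lower and 19 higher (24.0% and 15.2%, against 20.8% and 17.0% of all regions). Ror1, a receptor tyrosine kinase that binds Wnt5a, alone had 35 regions with 11 lower and 6 higher.

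Ror1 lost and gained strong peaks within the same gene body. At chr4:100214877-100215276, 119286 bp past the Ror1 start, control scores ran from 0.635 through a median of 0.685 to 0.753. Knockout replicate 1 scored 0.0984 and the other 4 scored 0. All controls lay far above all knockouts, with a difference of -0.671 ± 0.0471 (SE; limma adjusted p = 1.42e-07).

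At chr4:100362729-100363128, 267138 bp past the same start, all 6 controls scored 0 and the knockouts 0.771, 0.825, 0.822, 0.806 and 0.729. This Ror1 region had the largest difference of the regions named by the rule, 0.791 ± 0.0450 (SE; limma adjusted p = 2.87e-08). A gain lay close to the loss described above: chr4:100216598-100216997 rose from 0.108 to 0.805 (adjusted p = 6.35e-06). The Ror1 region chr4:100258474-100258873 had a peak in every control and no knockout (0.457 against 0, adjusted p = 4.51e-05). The relative Ror2 had 1 lower and 1 higher of 12 regions, with 2 lower without control 5. Ror2 at chr13:53201560-53201959 fell from 0.431 to 0.0683 (adjusted p = 0.00230). Its higher region at chr13:53099662-53100061 (0.440 to 0.684, adjusted p = 0.0209) lost its call without knockout 3 (0.0516). The call was also lost with the lists as deposited (0.121), ranked by fold enrichment (0.0761) and with a replicate block (0.0627).

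**Figure D3:**
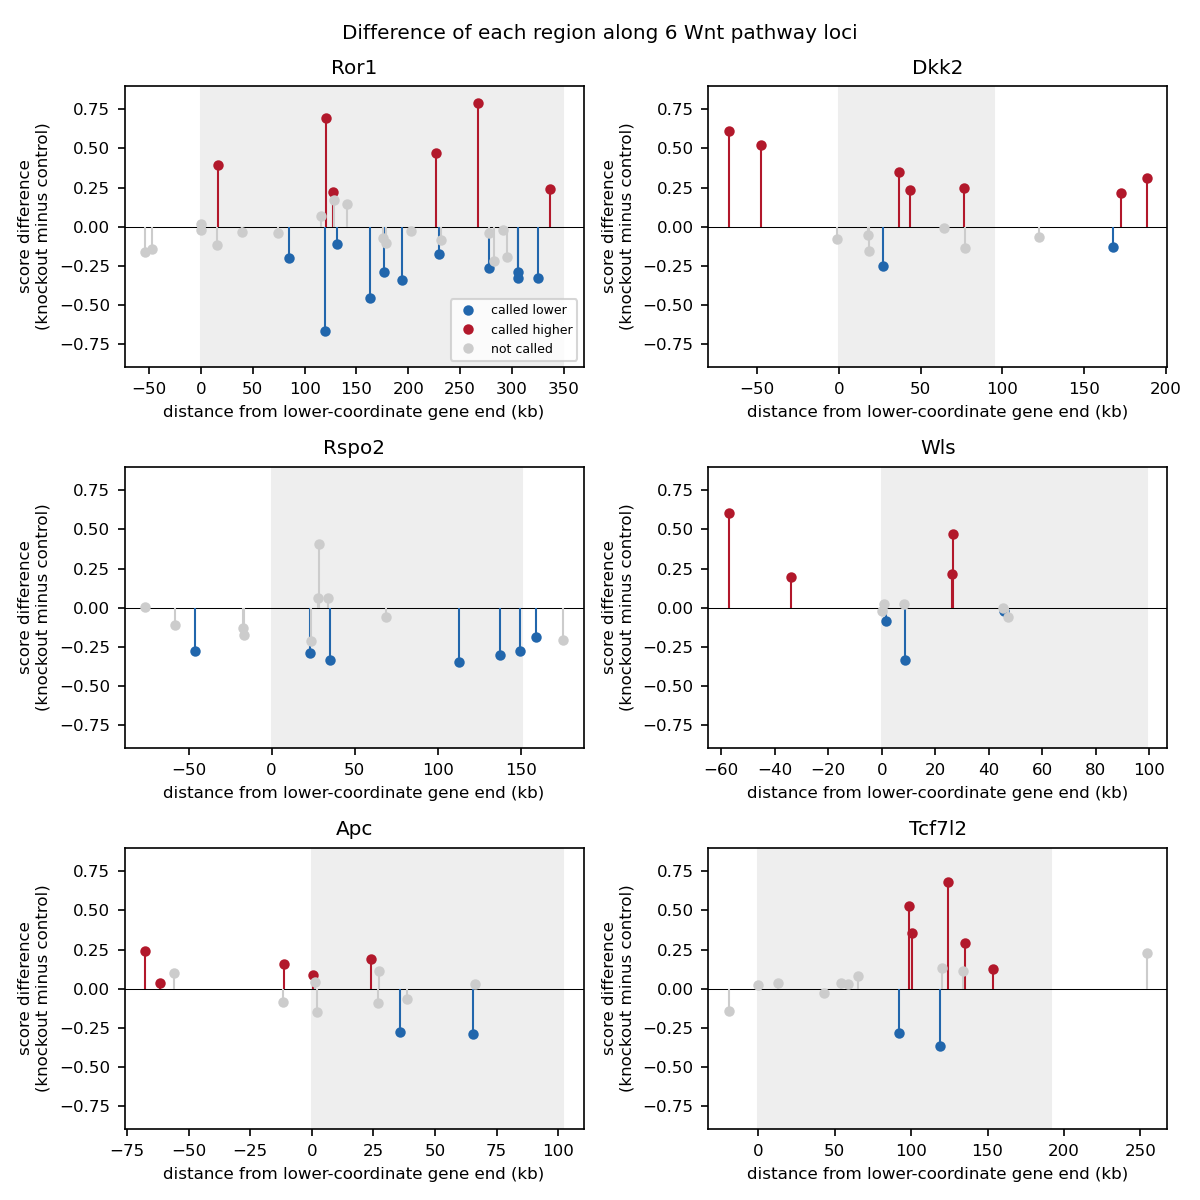
Difference in mean rank score (y axis, knockout minus control) of each tested region against its distance in kb from the lower-coordinate end of the gene body (grey band), for 6 genes with 7 or more called regions. Higher and lower calls lie among each other along Ror1, while the 7 calls at Rspo2 all point down.

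Frizzled receptors held 60 regions, 11 lower and 10 higher, and 9 of the 10 genes had a call. Over all regions 20.8% were lower and 17.0% higher, and 41.0% of all genes with a tested region had no call. Fzd4 had lower calls only, and Fzd7 and Fzd10 had higher calls only.

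Fzd4 had 4 lower regions of 6 and none higher. At chr7:89434372-89434771, 24462 bp from the Fzd4 gene body, control scores ran from 0.429 through a median of 0.565 to 0.610. The knockouts scored 0.0116, 0.0851, 0, 0 and 0. No knockout came near the lowest control, and the difference was -0.519 ± 0.0518 (SE; limma adjusted p = 3.26e-06). The call was lost with lists of 36467 peaks (-0.103, adjusted p = 0.0589). Further Fzd4 losses were chr7:89416005-89416404, from 0.431 to 0.0160 (adjusted p = 9.63e-05), and chr7:89445110-89445509, from 0.801 to 0.552 (adjusted p = 0.000213).

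Fzd7 had 3 higher regions of 13 and none lower. The lists as deposited gave 3 lower beside 3 higher, and leaving out control 3 or control 6 gave 1 lower. The median difference of the 13 Fzd7 regions was -0.0415. At chr1:59456855-59457254, 25092 bp upstream, Fzd7 scored 0 in all controls and 0.394 ± 0.130 in the knockouts (adjusted p = 0.000179). Fzd10 was higher at chr5:128609019-128609418, 8113 bp past its start, where the controls all scored 0 and the knockouts 0.422, 0.681, 0.527, 0.678 and 0.668. Every knockout had a peak there, with a difference of 0.595 ± 0.0587 (SE; limma adjusted p = 2.93e-06).

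Fzd3 had 3 lower and 1 higher region of 6, and Fzd5 1 lower and 1 higher of 6. Inside Fzd3, at chr14:65227172-65227571, control scores ran from 0.785 through a median of 0.818 to 0.841, while the knockouts scored 0.261, 0, 0, 0.384 and 0.591. The knockouts spread widely but all lay below the controls (difference -0.569 ± 0.0899, SE; limma adjusted p = 0.000196). Also inside Fzd3, at chr14:65193705-65194104, the controls all scored 0 and the knockouts 0.651, 0.799, 0.761, 0.739 and 0.537. That gain was 0.697 ± 0.0559 (SE; limma adjusted p = 4.51e-07).

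Fzd5, a receptor expressed in many epithelia, lost a peak 15607 bp upstream at chr1:64753157-64753556. Control scores ran from 0.519 through a median of 0.633 to 0.771, and all 5 knockouts scored 0. The difference of -0.638 ± 0.0547 (SE; limma adjusted p = 8.25e-07) contrasts in sign with the small rise at the Fzd5 promoter given above.

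Of the remaining Frizzled genes Fzd9 had no call, and Fzd1, Fzd2, Fzd6 and Fzd8 had 1 to 3 each. Fzd1 (1 lower and 2 higher of 9) rose at chr5:4773958-4774357 from 0.194 to 0.690 (adjusted p = 2.75e-06). Fzd1 had no lower region without knockouts 2 or 4, and 4 higher ones without knockout 3. Fzd2 (1 lower of 7) fell at chr11:102633346-102633745 from 0.623 to 0.254 (adjusted p = 0.00405), and Fzd6 rose at chr15:38986521-38986920 from 0.748 to 0.863 (adjusted p = 0.00832; 0.0525 with the lists as deposited and 0.104 ranked by fold enrichment). Fzd8 (1 lower of 6) fell at chr18:9147238-9147637 from 0.756 to 0.354 (adjusted p = 6.17e-06). With lists of 36467 peaks the Fzd8 difference turned to 0.144 (adjusted p = 0.0446), and without control 3 the gene had 2 lower regions.

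The coreceptors Lrp5 and Lrp6 had 3 and 4 lower regions and 1 higher region each, of 8 and 10. Lrp5 rose at chr19:3692472-3692871 from 0.250 to 0.812 (adjusted p = 3.99e-05) and fell inside the gene at chr19:3669058-3669457 from 0.344 to 0.0152 (adjusted p = 0.00102). Lrp6 fell at chr6:134538763-134539162 from 0.540 to 0.103 (adjusted p = 0.000209; 0.0642 with lists of 36467 peaks) and rose at chr6:134470841-134471240 from 0.203 to 0.621 (adjusted p = 0.00101). Both Lrp6 changes lay inside the gene body.

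The R-spondin arm held 75 regions of 9 genes, 16 lower and 7 higher (21.3% and 9.33%, against 20.8% and 17.0% of all regions). Without control 1 or knockout 2, 4 regions were higher. Rspo2 (7 lower of 17) and Znrf3 (5 lower of 18) held 12 of the 16, and neither had a higher region. No scaling gave Rspo2 or Znrf3 a higher region: with the lists as deposited Rspo2 had 10 lower regions, with centred scores 6 and with lists of 36467 peaks 3, and Znrf3 had 7, 4 and 3. Without control 2, Znrf3 had 1 higher region beside 4 lower ones.

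Inside Znrf3, at chr11:5296543-5296942, control scores ran from 0.539 through a median of 0.678 to 0.725 and all 5 knockouts scored 0. Znrf3 is the ligase that removes Frizzled receptors from the membrane. The difference was -0.662 ± 0.0501 (SE; limma adjusted p = 2.70e-07). A second Znrf3 region, chr11:5343758-5344157, fell from 0.719 to 0.106 (adjusted p = 9.98e-07).

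Rspo2, a secreted R-spondin needed for lung growth, kept a peak in all 11 libraries at chr15:43133277-43133676, where its score fell from 0.932 ± 0.0435 to 0.584 ± 0.112 (adjusted p = 2.19e-05). The genotypes did not overlap there. The other 6 lower Rspo2 regions had overlapping scores and adjusted p-values up to 0.0369. Of these, chr15:43170153-43170552 fell from 0.315 to 0.0336 (adjusted p = 0.00471), and it was among those called under all alternatives that gave a value. The call at chr15:43055614 was lost without any of 7 libraries (controls 1 to 5, knockouts 3 and 4; 0.0589 to 0.0835). The call at chr15:43179562 was lost without any of 9 libraries (controls 1, 3, 4 and 6 and every knockout; 0.0607 to 0.0677).

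The Lgr receptors and Rnf43 showed gains beside losses. Lgr4 had 2 higher regions of 5, and 1 without any of the 6 controls or without knockouts 2, 3 or 5, with chr2:110012142-110012541 inside the gene rising from 0.114 to 0.594 (adjusted p = 3.06e-05). Lgr6 (2 lower and 1 higher of 10) rose at chr1:135099284-135099683 from 0 in all controls to 0.335 (adjusted p = 4.98e-05) and fell at chr1:134994350-134994749 from 0.289 to 0.0304 (adjusted p = 0.00881). Its lower count was 1 without controls 1 or 6 or knockouts 2, 4 or 5. Lgr5, a marker of several epithelial stem cells, had 1 called region of 9, chr10:115587311-115587710 at a gene end, with a rise from 0.714 to 0.787 (adjusted p = 0.0425). Lgr5 lost this call without any of 8 libraries (controls 1 to 4, knockouts 1, 2, 3 and 5, adjusted p 0.0613 to 0.107). It had 1 lower region without controls 1, 2 or 5. With the lists as deposited the call was lost (0.271), and Lgr5 had 3 lower regions and 0 higher.

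Rnf43, the partner ligase of Znrf3, had 1 lower and 2 higher regions of 9, and neighbouring ones moved in opposite directions. It had 1 higher region without control 1 or knockout 2. The region chr11:87697150-87697549 rose from 0.383 to 0.680 (adjusted p = 0.000175), while chr11:87698109-87698508 fell from 0.317 to 0 (adjusted p = 0.00781). Rspo4 likewise rose at chr2:151797084-151797483 from 0 to 0.347 (adjusted p = 0.000595) and fell at chr2:151876187-151876586 from 0.608 to 0.307 (adjusted p = 0.000165). Rspo1 and Rspo3 had 2 regions each and no call.

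Secreted inhibitors held 37 regions of 5 genes, 10 lower and 9 higher (27.0% and 24.3%, against 20.8% and 17.0% of all regions). All 5 genes had a call. Dkk2, which blocks the Lrp coreceptors, accounted for 7 of the 9 higher regions.

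At chr3:132017864-132018263, 67202 bp upstream of the Dkk2 gene body, all controls scored 0 and the knockouts 0.632, 0.532, 0.691, 0.527 and 0.666. Among the peaks used it was present in every knockout and in no control, with a difference of 0.609 ± 0.0510 (SE; limma adjusted p = 6.56e-07). Dkk2 also rose at chr3:132037566-132037965 from 0.0493 to 0.575 (adjusted p = 6.82e-06) and inside the gene at chr3:132161554-132161953 from 0.658 to 0.905 (adjusted p = 9.96e-06). Of its 2 lower regions, chr3:132112288-132112687 went from 0.252 to 0 (adjusted p = 0.00264). With any library left out, Dkk2 again counted 7 higher and 2 lower regions.

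Sfrp2, a secreted decoy that binds Wnt ligands, had 4 lower regions and 1 higher of 8. At chr3:83689524-83689923, 76026 bp from the gene body, control scores ran from 0.541 through a median of 0.628 to 0.647 and all 5 knockouts scored 0. The loss was -0.616 ± 0.0457 (SE; limma adjusted p = 2.26e-07). On the other side of Sfrp2, chr3:83776664-83777063 rose from 0.422 ± 0.0469 to 0.949 ± 0.0166 (adjusted p = 2.21e-08). That region thus moved from the middle of the control lists to near the top of the knockout lists.

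Sfrp1 had 2 lower regions of 4, and 1 without controls 5 or 6 or knockouts 2, 3 or 4. Without control 1 it also had 1 higher region. Its intragenic region chr8:23435591-23435990 had a peak in all 6 controls and no knockout (0.493 against 0, adjusted p = 3.39e-06; 0.365 with lists of 36467 peaks). Dkk1 (1 lower and 1 higher of 7) rose at chr19:30468779-30469178 from 0.235 to 0.638 (adjusted p = 0.00255) and fell at chr19:30521625-30522024 from 0.339 to 0.0443 (adjusted p = 0.0214). Dkk3 had 1 lower region of 3, from 0.364 to 0.0545 (adjusted p = 0.0168).

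The destruction complex and feedback genes held 31 regions, 4 lower and 6 higher (12.9% and 19.4%, against 20.8% and 17.0% of all regions). Without control 4 or knockouts 2 or 3, 3 regions were higher. Axin2, a feedback inhibitor and common reporter of canonical signalling, had none called of 5. At the Axin2 start, chr11:108920142-108920541, control scores ran from 0.754 through a median of 0.802 to 0.852 and the knockouts scored 0.799, 0.699, 0.807, 0.668 and 0.745. The genotypes overlapped, with a difference of -0.0589 ± 0.0288 (SE; limma adjusted p = 0.124). With the lists as deposited this Axin2 region was called lower (-0.0751, adjusted p = 0.0491).

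Apc, the scaffold of the destruction complex, had 5 higher and 2 lower regions of 15. Apc at chr18:34285553-34285952 fell from 0.290 to 0 (adjusted p = 0.00569). The higher Apc region with the largest difference, chr18:34152598-34152997, went from 0.184 to 0.424 (adjusted p = 0.0323). It lost its call without any of 6 libraries (controls 2, 4 and 5, knockouts 1, 2 and 5, adjusted p 0.0513 to 0.0808). The call was also lost with the lists as deposited (0.234) and ranked by fold enrichment (0.160). The number of higher Apc regions ranged from 2 to 4 with a library left out, and was 2 without control 4, knockout 2 or knockout 3 and 3 without controls 1, 5 or 6 or knockout 5. With the lists as deposited it was 2, equal to the lower ones. Nkd1, which restrains Dishevelled and had 2 lower and 1 higher of 8, rose at chr8:88605392-88605791 from 0.143 to 0.429 (adjusted p = 0.00494; 0.126 with the lists as deposited) and fell at chr8:88506935-88507334 from 0.271 to 0 (adjusted p = 0.00465). Axin1 had 3 regions and no call.

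β-catenin and the TCF/LEF factors held 56 regions of 5 genes, 12 lower and 7 higher (21.4% and 12.5%, against 20.8% and 17.0% of all regions). Ctnnb1 had 4 lower regions of 9 and none higher. The lists as deposited gave 6, lists of 36467 peaks 2 and centred scores 3, none of them higher. Without controls 2, 3 or 5 or knockout 5 it had 2 lower regions.

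At the Ctnnb1 start, chr9:120933330-120933729, control scores ran from 0.556 through a median of 0.612 to 0.672 and the knockouts scored 0.516, 0.525, 0.495, 0.526 and 0.439. All knockouts lay below the lowest control, with a difference of -0.112 ± 0.0369 (SE; limma adjusted p = 0.0285). The call at the start was lost without controls 2, 3 or 5 or knockout 5 (0.0515 to 0.0601), with scores centred per library (0.0946) and ranked by fold enrichment (0.183). A replicate block (0.0701) lost it as well. A larger Ctnnb1 fall lay 7092 bp upstream at chr9:120926108-120926507, from 0.595 to 0.220 (adjusted p = 0.00371).

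Lef1, a nuclear partner of β-catenin, had 2 lower regions of 10. None was lower without control 3 or knockouts 1 or 3, and 1 without controls 1, 4 or 6 or knockout 4. At the Lef1 start, chr3:131110139-131110538, control scores ran from 0 through a median of 0.167 to 0.346 and the knockouts scored 0.181, 0.144, 0.322, 0.162 and 0. The genotypes overlapped almost fully (difference -0.00406 ± 0.0708, SE; limma adjusted p = 0.971), and the sign of this difference depended on the setting. Inside Lef1, chr3:131156381-131156780 went from 0.649 to 0.450 (adjusted p = 0.0272), a call lost without controls 3 or 5 or knockouts 1 or 3 (0.0577 to 0.0697). Tcf7 had no call among 6 regions.

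Tcf7l1 and Tcf7l2, the TCF members that can repress or activate, changed inside their gene bodies. Tcf7l1 had 4 lower and 2 higher regions of 14. In Tcf7l1, chr6:72736873-72737272 ran in controls from 0.421 through a median of 0.614 to 0.696, and the knockouts scored 0.198, 0, 0, 0.122 and 0. No knockout reached the lowest control (difference -0.530 ± 0.0630, SE; limma adjusted p = 1.58e-05). Also in Tcf7l1, at chr6:72671202-72671601, all controls scored 0 and the knockouts 0.602, 0.672, 0.606, 0.689 and 0.625. This gain in every knockout was 0.639 ± 0.0461 (SE; limma adjusted p = 1.78e-07).

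Tcf7l2 had 5 higher and 2 lower regions of 17. At chr19:55865727-55866126 all controls scored 0 and the knockouts 0.728, 0.702, 0.556, 0.677 and 0.745. The gain was 0.682 ± 0.0505 (SE; limma adjusted p = 2.21e-07). Tcf7l2 also rose at chr19:55840463-55840862 from 0 to 0.531 (adjusted p = 2.52e-06; 0.0806 with lists of 36467 peaks), and fell at chr19:55860377-55860776 from 0.484 to 0.118 (adjusted p = 0.00443; 0.108 with lists of 36467 peaks). The Tcf7l2 gene body therefore held a gain and a loss close to each other.

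**Figure D4:**
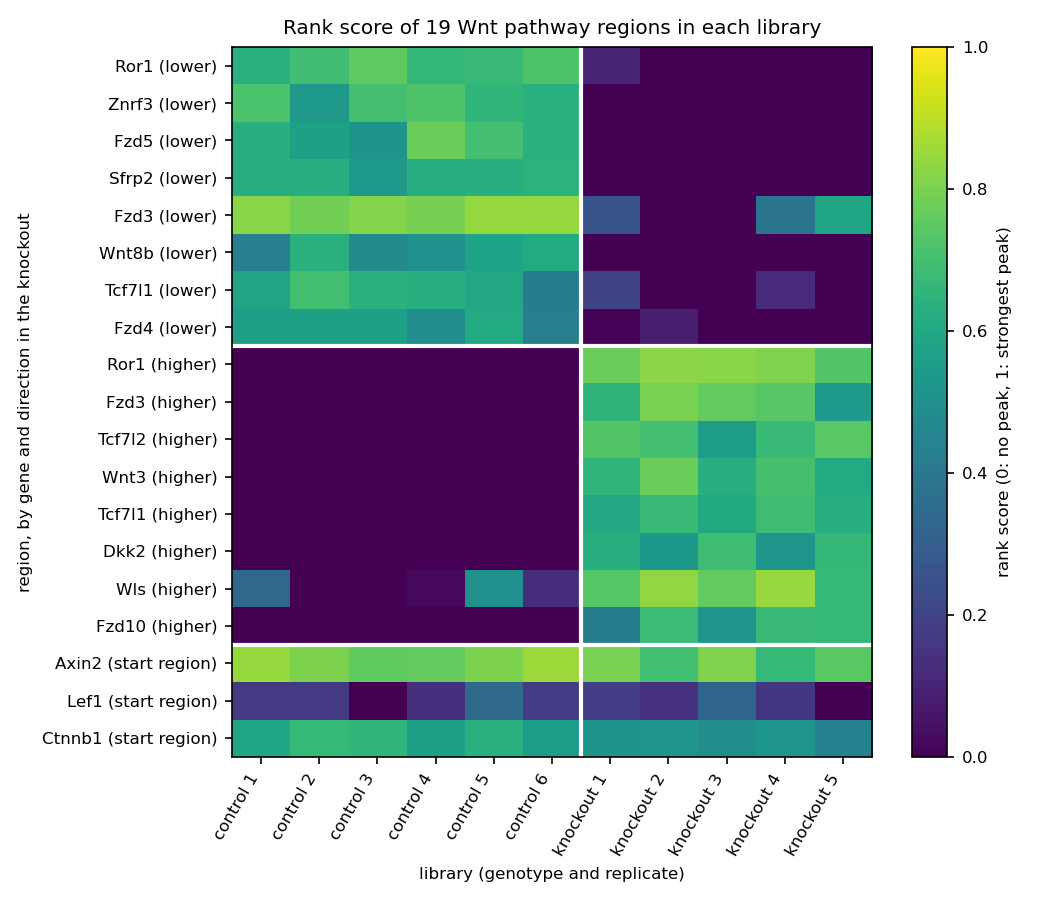
Rank score (colour, 0 for no peak to 1 for the strongest peak) of 19 Wnt pathway regions (rows) in each of the 11 libraries (columns, controls left of the white line). The 8 lower and 8 higher regions were chosen for the largest differences among called regions, at most 1 per gene and direction. By that choice the lower ones are bright in controls and dark in knockouts, and the higher ones the reverse. The start regions of Axin2, Lef1 and Ctnnb1 at the bottom differ less, and of these only that of Ctnnb1 was called (lower, -0.112).

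The other genes of the pathway, 53 of 55 listed genes with a tested region, held 395 regions, of which 90 were lower and 67 higher (39.7% called, against 37.8% of all regions). Secreted modulators and ligand processing genes had 6 lower and 6 higher of 41, and cytoplasmic and nuclear genes such as the Dvl, Tle and Gsk3 families 31 lower and 32 higher of 174. Planar polarity genes, such as the Vangl, Celsr and Prickle families, had 36 lower and 14 higher of 125. Their share of lower regions was 28.8%, against 20.8% of all regions. The remaining listed genes had 17 lower (30.9%) and 15 higher (27.3%) of 55. The difference between these groups was not tested.

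The share of a library's peaks that lay at Wnt pathway genes was 0.505% ± 0.0127 (SD, n = 6) in controls and 0.467% ± 0.0163 (SD, n = 5) in knockouts. It ran from 0.488% to 0.523% in controls and from 0.444% to 0.485% in knockouts. With lists of equal length it ran from 0.485% to 0.531% and from 0.450% to 0.480%, which is 354 to 387 and 328 to 350 peaks. The genotypes did not overlap in either form, though the gap was narrow. The knockout lists were also shorter on average, with 72935 to 85704 peaks against 79525 to 112297, and their part in the first value was not tested. Peaks repeating the interval of another made up 35.2% to 41.1% of the deposited control lists and 33.5% to 36.7% of the knockout lists. Whether the gap is particular to Wnt pathway genes was not tested.

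**Figure D5:**
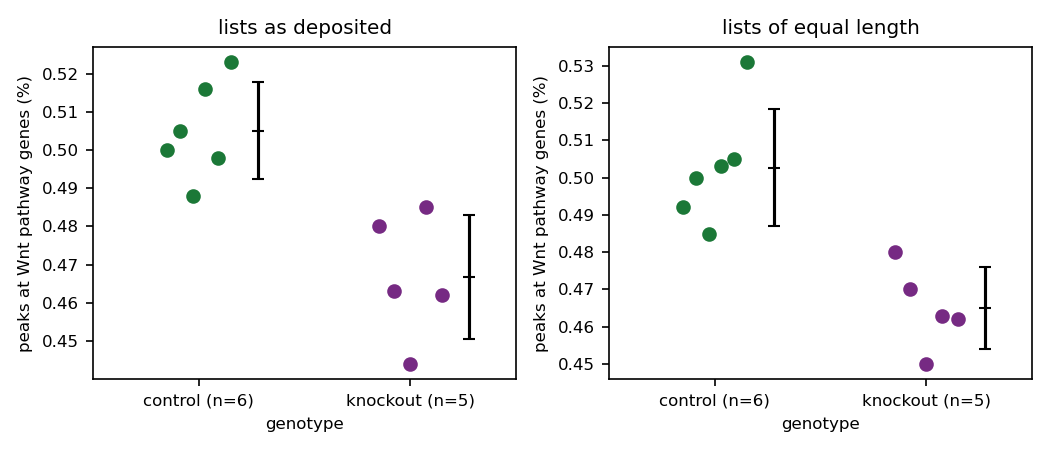
Percent of each library's peaks (y axis, not starting at 0) at Wnt pathway genes by genotype, for lists as deposited (left) and lists of equal length (right); points are libraries and bars the mean ± SD. All 5 knockout libraries lie below all 6 controls in both panels, between 0.444% and 0.485% on the left.

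As facts of the whole series, scores correlated over all regions at 0.795 to 0.881 between libraries of 1 genotype and at 0.554 to 0.656 between genotypes, and no read depth is known. Of 8 epithelial marker genes 7 had a tested region within 1 kb of a gene end, none of them called, and the summed marker score was 3.64 to 4.16 in controls and 3.37 to 3.84 in knockouts. Of 6 endothelial markers 3 had such a region, with sums of 1.41 to 1.92 and 0.985 to 1.44, and the Tek region was present in all controls and no knockout (0.519 against 0, adjusted p = 1.61e-05). The Kdr region (0.452 against 0.467, limma adjusted p = 0.893) and the Erg region (0.777 against 0.76, limma adjusted p = 0.713) had a peak in all 11 libraries and were not called. Blood markers had 3 of 6 (1.05 to 1.62 and 0.916 to 1.18, with 1 lower), mesenchymal markers 4 of 8 (0.975 to 1.70 and 0.989 to 1.41, none called) and mesothelial markers 2 of 3 (0 to 0.661 and 0.386 to 0.778, with 1 higher). Pecam1, Cdh5, Ptprc, Pdgfra and Cldn18 had no such region. The part of other cell types in the Wnt pathway results was not tested, and in such bulk libraries fewer cells of a type and less accessible DNA per cell cannot be told apart.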

How the data were processed

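ATAC-seq peak lists of 6 control and 5 knockout libraries were used, in mm10 per the labels. The submitters' processing notes name MACS2, DiffBind 3 and deepTools without their roles. No source used here gives the aligner, the calling options or the filters. The layout is that of MACS2, so the deposited −log10 p, the deposited −log10 q and the deposited fold enrichment (a ratio over background) were taken as made by the authors within each library. The deposited score, a whole number without a unit, was not used. Read depth is unknown.

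Each list was cut to its 72935 peaks of highest −log10 p and ranked. Windows of 400 bp on summits were reduced to the best-ranked of overlapping ones, a peak counted from 100 bp of overlap, and a region was tested when 3 or more of the 11 libraries had it. Neighbouring windows can share a wide peak. Genes came from a RefSeq table of 21900 protein-coding genes (GRCm38.p6), promoters from RefSeq for 39 of 57 genes. No genome was used, so sequences of distal regions are not shown.

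Scores were compared with limma 3.58.1 (trend and robust) in R 4.3.3, genotype as the only term, Benjamini-Hochberg at 0.05 over all regions. Python 3.11.15, numpy 2.4.6, pandas 2.3.3, bedtools 2.31.1 and matplotlib 3.10.9 did the rest. On simulated data with 50 regions per shift among 83262, the fit called 24% of those moved by -0.3 and 38% of those moved by 0.3. It called 0% of those moved by 0.15 either way, and 1 of 32 calls was false. A far larger share of regions was called in the real data (37.8%), where the adjustment admits larger p-values. These rates therefore do not describe the power or the false calls of the real fit. The members and gene lists were chosen with earlier results of these data known. The naming rule took each gene's called lower and called higher region with the largest difference (67 regions), per-library values for the 8 largest per direction, and the start regions of Axin2, Lef1 and Ctnnb1. A further 25 regions, these starts among them, were followed through the alternatives, and those not under the rule were chosen after their values were seen. No label says that replicate numbers pair the libraries, and the main fit did not pair them. Alternatives covered list length, q, ranking, overlap, regions kept, merging, centring, fit, Fisher's exact test, replicate block, gene distance and leaving out each library.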

Additional observations from a re-analysis of the deposited data

Results flagged for a closer look

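Of 33 groups of values that varied between libraries, 27 of region scores and 6 of totals and means per library, 3 held a library far from the rest. The threshold is one that chance passes in about 1 in 20 groups of normally spread values, which scores with many zeros are not. At the lower Ror1 region knockout replicate 1 scored 0.0984, while the other 4 knockouts scored 0. At the lower Fzd4 region knockout replicate 2 scored 0.0851, with the other knockouts between 0 and 0.0116. At the lower Sfrp2 region control replicate 3 scored 0.541, below the other 5 controls. Each of these values kept to the side of its own genotype, and the calls at all 3 regions held with any library left out.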

How the results depend on the processing

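Counts and medians were recomputed under 25 alternatives. With lists as deposited the median difference was -0.0759 at Wnt pathway regions and -0.0543 over all regions, where 23664 were lower and 11461 higher. With lists of 36467 peaks, Wnt pathway regions had 39 lower and a median of 0.0014, the other pathway genes 45 lower and 37 higher, and all regions 8978 lower and 8251 higher. Fisher's exact test called 31 lower and 19 higher Wnt pathway regions, 39 and 30 of the other pathway genes, and 5911 and 5765 of all regions, over fewer testable regions. Assigned by nearest gene start, where only 39 Wnt pathway genes have an entry, 56 regions were lower. Centring turned the split of all regions to 14292 lower and 16863 higher. Of 92 named regions, 52 kept direction and side of the threshold in all alternatives that gave a value and 38 lost the call in at least 1. Not every such loss is given with its region above. In 3 the direction turned: Fzd8 to 0.144 with lists of 36467 peaks, Wnt2b to -0.0608 with merged peaks, and the Lef1 start, called in none, to 0.0774 ranked by fold enrichment, 0.0157 centred, and up to 0.0364 (from -0.0442) with a library left out, above 0 without control 5 or knockouts 2 or 5. The cause was not tested.

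With a library left out, Wnt pathway regions had 81 to 93 lower and 54 to 65 higher, the other pathway genes 79 to 90 and 62 to 67, and all regions 15503 to 17409 and 12955 to 14256. The medians ran from -0.0466 to -0.0261 and from -0.0257 to -0.0147. Deviations of same-numbered libraries correlated at -0.0234 to 0.139 over 5 pairs, and those of differently numbered ones at -0.084 to 0.0809 over 25. So few pairs cannot settle whether the numbers pair the libraries. With a replicate block 80 Wnt pathway regions were lower and 54 higher. Without read counts, a weak peak and no peak cannot be told apart below the list length used.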
